A study of Mus musculus with 2 samples.

Results

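MicroRNAs (miRNAs) cut from 7 genes that are known as markers of mesenchymal cells were followed in the adrenal gland of young mice. The genes are Mir143, Mir145a and Mir145b, and Mir199a-1, Mir199a-2, Mir199b and Mir214. They were taken by symbol from the GENCODE M21 annotation, and all 7 were found among the 2202 miRNA genes of the count tables. The adrenal tissue was taken at 10 days from male B6CASTF1/J mice, an F1 cross between C57BL/6 and CAST/EiJ. Total RNA was sequenced as microRNA libraries of short fragments. There was 1 group of 2 libraries, numbered as biological replicates 1 and 2 and tied by the labels to different males of 1 donor record. The labels do not say if the glands of several animals were combined. No treatment, mutant or second tissue was present, so the comparisons are between genes and between the libraries. In whole tissue, fewer cells of a type and less RNA per cell cannot be told apart.

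The miRNAs miR-143 and miR-145 are known to be cut from a shared primary transcript that is most active in smooth muscle cells and pericytes, where they favour the contractile state. In the mouse, miR-199a and miR-214 are cut from the long transcript Dnm3os, which is active in developing mesenchyme. In the adrenal gland, cells of these kinds lie in the capsule, in the stroma and in vessel walls. A miRNA gene is transcribed, folded as a hairpin and cut into arms, and bases 2 to 8 of a mature arm, the seed, pair with target mRNAs.

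Sequences of the miR-199 and miR-214 hairpins are shown because the copies carry the same mature arms, which bears on every count of a miR-199 gene. RefSeq (GRCm38.p6) held hairpins for 4 of the 7 genes, and all 4 spans matched the GENCODE spans. The 7 listed arms of these genes had 4 different sequences with 4 different seeds, shown here 5′ to 3′ with the seed in capitals.
miR-199a-5p: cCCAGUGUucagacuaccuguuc
miR-199a-3p and miR-199b-3p: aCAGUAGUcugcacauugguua
miR-214-5p: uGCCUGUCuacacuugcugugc
miR-214-3p: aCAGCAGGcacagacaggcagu
The seed of miR-214-3p also occurs in the mature arm of Mir761, which had 0 counts in both libraries. No other listed arm outside the miR-199 copies had any of these seeds.

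The hairpins themselves are given next, 5′ to 3′ on the gene's own strand, with the RefSeq arms in capitals. They show where the copies are alike and where they differ.
Mir199a-2: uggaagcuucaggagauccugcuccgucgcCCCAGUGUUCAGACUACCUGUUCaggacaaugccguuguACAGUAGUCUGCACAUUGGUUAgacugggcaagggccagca
Mir199a-1: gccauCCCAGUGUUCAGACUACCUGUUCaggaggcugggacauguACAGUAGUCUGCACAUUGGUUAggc
Mir199b: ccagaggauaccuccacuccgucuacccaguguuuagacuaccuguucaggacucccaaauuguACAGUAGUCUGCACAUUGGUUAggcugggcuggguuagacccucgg
Mir214: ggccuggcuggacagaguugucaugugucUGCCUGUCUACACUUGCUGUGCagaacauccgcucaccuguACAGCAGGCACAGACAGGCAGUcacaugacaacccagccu
The arm miR-199a-3p occurs whole in 3 hairpins, those of Mir199a-1, Mir199a-2 and Mir199b. The arm miR-199a-5p occurs whole in 2, those of Mir199a-1 and Mir199a-2. RefSeq listed no 5p arm for Mir199b, but its hairpin holds a stretch of 23 bases that differs from miR-199a-5p by the single substitution C10U, counted from 1 at the 5′ end of miR-199a-5p. The arm and the stretch, with that base in capitals, read as follows.
miR-199a-5p: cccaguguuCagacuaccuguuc
Mir199b stretch: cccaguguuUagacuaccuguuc
Both miR-214 arms occur in the Mir214 hairpin alone.

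**Figure D1:**
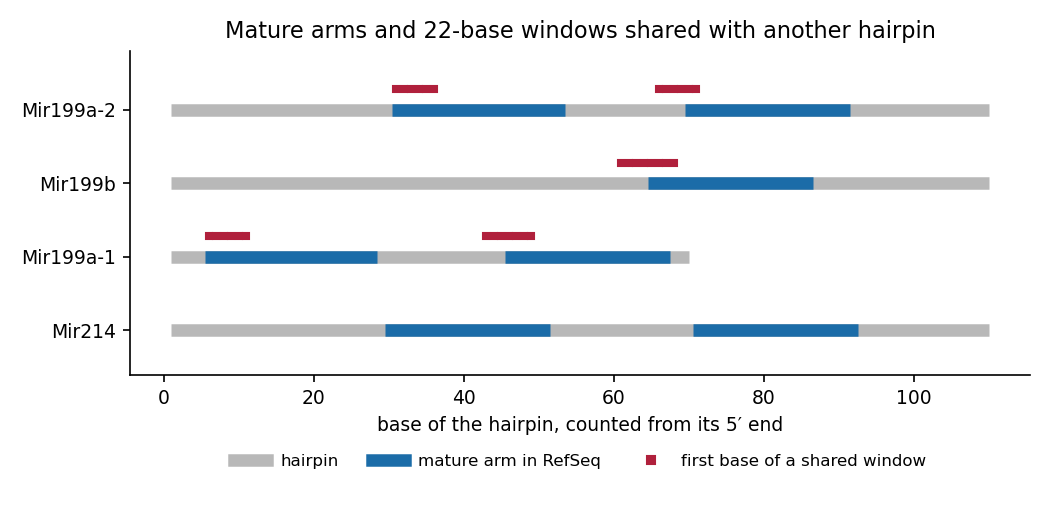
Grey bars are the hairpins of the miR-199 copies and of Mir214, drawn by base from the 5′ end, blue marks the mature arms in RefSeq, and red squares mark the first base of each 22-base window that also occurs in another annotated miRNA hairpin. Shared windows lie at the arms of the miR-199 copies, 12 in Mir199a-2, 8 in Mir199b and 13 in Mir199a-1, and Mir214 has 0.

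Among all 2202 annotated hairpins, windows of 22 bases shared with another hairpin numbered 13 of 49 in Mir199a-1, 12 of 89 in Mir199a-2 and 8 of 89 in Mir199b. Every such window was shared with another miR-199 copy. Mir143, Mir145a, Mir145b and Mir214 had 0 shared windows at 22, 20 and 18 bases. The longest run common to Mir145a and its copy Mir145b was 17 bases, against 27 for Mir199a-2 with Mir199a-1. The map of arms and shared windows shows that the loops and flanks of the miR-199 copies differ, while the 3p arm is the same in all 3. In the deposited tables, reads that map to several places are kept in a row of their own and out of every gene. They made up 27.5% of the reads in replicate 1 and 25.9% in replicate 2. How many of them belong to miR-199 cannot be read from the tables, so the counts of the miR-199 copies cover only reads that were placed at a single gene, and these genes are uncertain.

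The 4 genes with printed hairpins lie at 3 loci, each on the strand opposite to a dynamin gene (mm10, 1-based). Mir199a-2 (ENSMUSG00000070126.1) lies at chromosome 1, 162217814 to 162217923, and Mir214 (ENSMUSG00000065516.1) at 162223368 to 162223477, both in exons of Dnm3os on the plus strand and within an intron of Dnm3 on the other strand. Mir199b (ENSMUSG00000092807.1) lies on chromosome 2 at 32318460 to 32318569 in an intron of Dnm1, antisense to it. Mir199a-1 (ENSMUSG00000065547.1) lies on chromosome 9 at 21496495 to 21496564 in an intron of Dnm2, antisense to it. No member overlapped another annotated miRNA gene. In each of the 7 genes the counts with and without strand were identical, and the opposite-strand count was 0. The nearest other miRNA gene was Gm23363, 116 bases upstream of Mir199b, with 2 counts in replicate 1 and 1 in replicate 2.

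The other 3 genes lie on the minus strand of chromosome 18. Mir143 (ENSMUSG00000065445.3) spans 61649196 to 61649258 and Mir145a (ENSMUSG00000065592.2) 61647825 to 61647894, downstream of it, with 1301 bases between them. Neither overlaps another annotated gene, and the long noncoding RNA gene Carmn ends 366 bases upstream of Mir143 on the same strand. Mir145b (ENSMUSG00000098366.1) lies apart from them, at 69022199 to 69022273, with no annotated gene within 10000 bases.

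The libraries held 7503044 reads (replicate 1) and 8907701 reads (replicate 2), of which 2843734 and 3080062 were assigned to miRNA genes on their own strand. Levels are given as counts per 1000000 of these own-strand reads (CPM), with the SD over both libraries. Of the 2202 genes, 441 reached 1 CPM in both. Where a gene had 0 counts, the limit is taken as 3 counts, which is 1.05 CPM (replicate 1) or 0.974 CPM (replicate 2) and covers counting error only. A mature miRNA read comes from 1 arm whatever the length of the hairpin, so levels are compared in CPM, and the value per base of the annotated gene is given beside it.

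Mir143 was by far the most abundant of the 7 genes. It had 106320 counts in replicate 1 and 93197 in replicate 2, or 37388 and 30258 CPM, with a mean of 33823 ± 5041 CPM (SD, n = 2). Its share of all assigned reads was 3.74% in replicate 1 (95% Wilson interval 3.72 to 3.76) and 3.03% in replicate 2 (3.01 to 3.045). It ranked 6 of 2202 genes in replicate 1, 9 in replicate 2 and 8 by mean CPM, and 6 by mean CPM per base. Mir143 alone held 92.6% of the reads of the 7 genes in replicate 1 and 88.7% in replicate 2. The 7 genes together took 4.04% and 3.41% of the assigned reads.

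Next to Mir143 in the order of mean CPM stood Mirlet7i (45445 ± 2426 CPM, SD, n = 2) and Mir375 (34264 ± 168 CPM), a miRNA of endocrine cells, above it. Below it stood Mir322 (27157 ± 11740 CPM) and Mir139 (26736 ± 8395 CPM). Mir375 had 34145 CPM in replicate 1 and 34383 in replicate 2, between the values of Mir143, so their order differs by library. The ranges of Mir143 and of Mir375, Mir322 and Mir139 overlapped, and that of Mirlet7i lay above.

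Mir214 and Mir145a formed the middle of the set. Mir214 had 4786 counts in replicate 1 and 6432 in replicate 2, or 1683 and 2088 CPM (mean 1886 ± 287 CPM, SD, n = 2), rank 65 by mean. Mir145a had 3421 and 5228 counts, or 1203 and 1697 CPM (mean 1450 ± 350 CPM), rank 72. In CPM, Mir145a stood below Mir214 in each library, at 0.715 times its count in replicate 1 and 0.813 times in replicate 2. Per base of the annotated gene the order turned, with 17.2 and 24.2 CPM per base for Mir145a against 15.3 and 19.0 for Mir214, because the Mir145a entry is 70 bases long and that of Mir214 110. Within each scale the order was the same in both libraries, although the ranges over the libraries overlapped, so the order depends on the scale chosen. Around Mir214 in the order of mean CPM stood Mir92-1, Mir106b, Mir615 and Mir676, at 1970, 1930, 1784 and 1748 CPM, and the range of each overlapped that of Mir214.

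The miR-199 copies were lower still, with the limit on their counts given above. Mir199b had 196 counts in replicate 1 and 135 in replicate 2, or 68.9 and 43.8 CPM (mean 56.4 ± 17.7 CPM, SD, n = 2). Mir199a-2 had 53 and 51 counts, or 18.6 and 16.6 CPM (mean 17.6 ± 1.47 CPM). Mir199a-1 had 0 counts in both libraries, and so had Mir145b. Mir199b took 78.7% of the reads placed at a single miR-199 copy in replicate 1 (95% Wilson interval 73.2 to 83.3) and 72.6% in replicate 2 (65.8 to 78.5). Both arms of Mir199a-1 occur whole in Mir199a-2, so its count of 0 sets no limit on the reads it gave rise to. Mir199b, the copy whose 5p stretch carries C10U, had 3.70 times the count of Mir199a-2 in replicate 1 and 2.65 times in replicate 2.

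**Figure D2:**
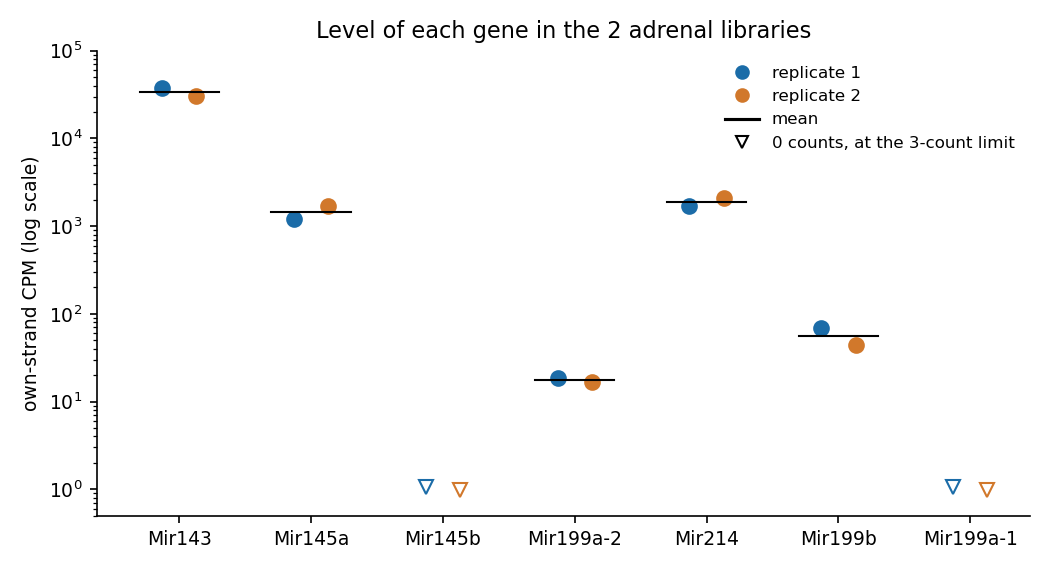
Own-strand CPM on a log scale for each of the 7 genes, with replicate 1 in blue, replicate 2 in orange and the mean as a black line, and open triangles at the 3-count limit where the count was 0. Mir143 lies at 37388 and 30258 CPM, Mir145a and Mir214 between 1203 and 2088 CPM, Mir199b and Mir199a-2 below 69 CPM, and Mir145b and Mir199a-1 had 0 counts, where the limit covers only reads placed at that gene alone.

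Other genes whose listed arms occur in several hairpins were placed side by side with the miR-199 copies. For 38 counted genes, including Mir199a-1, Mir199a-2 and Mir199b, every arm in RefSeq also occurred in another hairpin. Of these 38, 6 (15.8%) reached 1 CPM in both libraries and 29 had 0 counts. Mir199b and Mir199a-2 were among the 6. Of 862 genes with no arm in another hairpin, the class of Mir214, 322 (37.4%) reached 1 CPM in both libraries, and 297 had 0 counts. Of 54 genes with some arms in another hairpin, 43 reached 1 CPM. These are descriptions over genes of unlike abundance, and the RefSeq table lists no arm for some genes.

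Between Mir143 and Mir145a, the upstream partner was far above the downstream one. Mir143 had 31.1 times the count of Mir145a in replicate 1 and 17.8 times in replicate 2, and per base of the annotated genes 34.5 and 19.8 times. Mir145a thus made up 3.12% of the reads of the pair in replicate 1 (95% Wilson interval 3.02 to 3.22) and 5.31% in replicate 2 (5.17 to 5.45). On the log2 scale the ratio of Mir145a to Mir143 was -4.96 in replicate 1 and -4.16 in replicate 2, with a mean of -4.56 ± 0.57 (SD, n = 2). The intervals of the shares did not overlap. The ratio was lower in replicate 1 by 0.80 on the log2 scale (95% exact interval -0.87 to -0.74, adjusted p = 1.7e-137 by Fisher's exact test over all neighbouring pairs), a test that sets the libraries against counting error only.

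The same comparison over all neighbouring miRNA genes gives the background. There were 114 pairs of adjacent genes on 1 strand with starts within 10000 bases and at least 10 counts in each gene. By Fisher's exact test with Benjamini-Hochberg adjustment, the partner ratio differed between libraries in 69.3% of them. The change in Mir145a over Mir143 ranked 47 of 114 by size, and the median absolute change was 0.63 on the log2 scale, with quartiles at 0.36 and 1.17. The imbalance within the pair ranked 36 of 114, and 42 pairs were at least 16-fold apart. Mir143 was higher and Mir145a lower in replicate 1, and opposite directions were found in 50 of the 114 pairs (43.9%). By size and direction the pair of Mir145a and Mir143 stood within the spread of other neighbouring genes.

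Between Mir199a-2 and Mir214 the downstream partner was the higher one. Mir214 had 4786 counts against 53 of Mir199a-2 in replicate 1, a ratio of 90.3, and 6432 against 51 in replicate 2, a ratio of 126. Both hairpins are annotated with 110 bases, so the ratio per base is the same. The log2 ratio of Mir214 to Mir199a-2 was 6.48 in replicate 1 and 6.96 in replicate 2 (mean 6.72 ± 0.34, SD, n = 2), and it ranked 12 of 114 pairs by size. Its change of -0.48 had a 95% exact interval from -1.07 to 0.10 and did not pass the test (adjusted p = 0.12, Fisher's exact test). The 2 arms of Mir214 are unique and those of Mir199a-2 are not, so the count of Mir199a-2 is a lower limit on reads of its arms and that of Mir214 is not limited in this way.

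**Figure D3:**
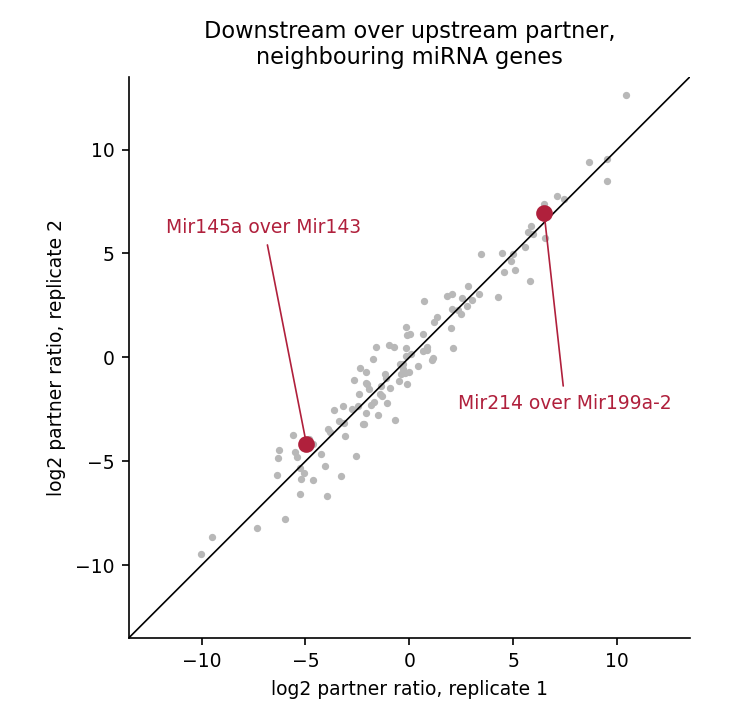
Each point is a pair of neighbouring miRNA genes, with the log2 ratio of the downstream to the upstream partner in replicate 1 on the x axis and in replicate 2 on the y axis, and the line marks equal ratios. The pairs of Mir145a over Mir143 (-4.96 and -4.16) and of Mir214 over Mir199a-2 (6.48 and 6.96) are in red, and both lie among the other pairs.

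Between the libraries the 7 genes did not move together. Of the 5 with at least 10 counts over both libraries, Mir143 and Mir199b were higher in replicate 1, Mir145a and Mir214 lower, and Mir199a-2 did not pass the exact two-sided binomial test (Benjamini-Hochberg over 444 tested genes). By that test 59.0% of all tested genes were called, 30.4% higher and 28.6% lower in replicate 1. When the count minimum was raised to 100, the share called was 80.4% of 285 genes. All 5 members were still tested at that minimum and 4 were called, so 4 of 5 is to be read against the higher share. The log2 ratio of replicate 1 over replicate 2 was 0.31 for Mir143 (95% exact interval 0.29 to 0.32), -0.50 for Mir145a (-0.56 to -0.43) and -0.31 for Mir214 (-0.37 to -0.26). It was 0.65 for Mir199b (0.33 to 0.98), with an adjusted p of 1.0e-04, and 0.17 for Mir199a-2 (-0.41 to 0.75), with an adjusted p of 0.64, both by the exact binomial test. None of the 5 reached a 2-fold difference, which 22.3% of the tested genes did.

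Against the spread over all genes these differences were ordinary in size. The median absolute log2 ratio over the 444 tested genes was 0.56. Over the 257 genes with a mean count of at least 100 it was 0.46, with an upper quartile of 0.78. By size, Mir145a (-0.50) and Mir199b (0.65) lay between these values, and Mir143 and Mir214 below the median. An absolute ratio at least as large as that of Mir143 was found in 70.9% of tested genes, as that of Mir145a in 55.2% and as that of Mir199b in 42.6%. By the negative binomial exact test in edgeR, with a spread estimated from the same libraries (biological coefficient of variation 0.394), each of the 5 genes had an adjusted p of 1, and their unadjusted p ran from 0.40 for Mir199b upward. That test called 2 of 444 genes at the adjusted threshold and 24 at an unadjusted p under 0.05.

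**Figure D4:**
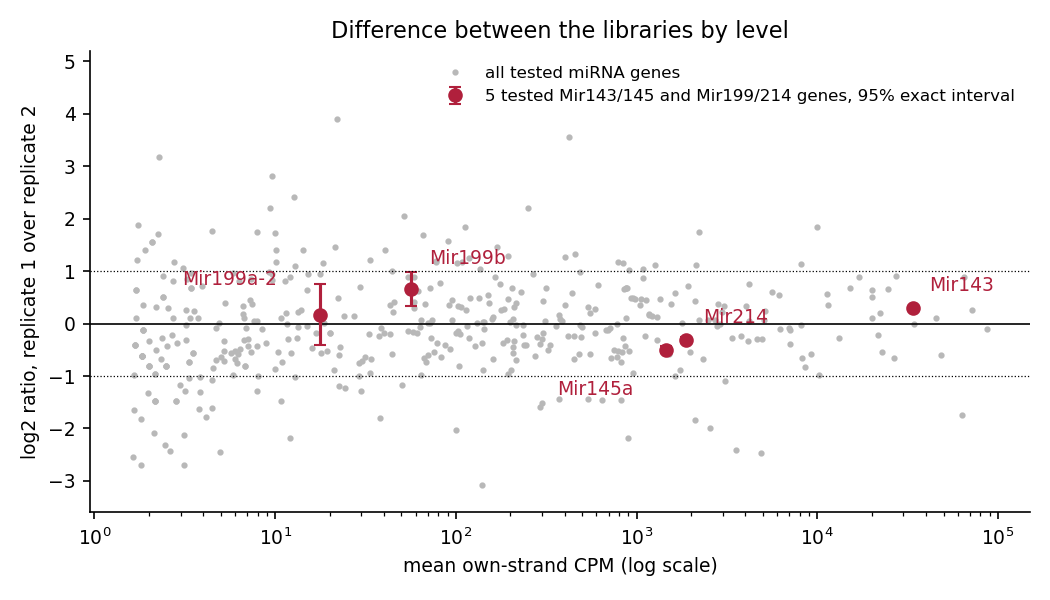
Each grey point is a tested miRNA gene, with its mean own-strand CPM on a log x axis and the log2 ratio of replicate 1 over replicate 2 on the y axis, and dotted lines mark 2-fold differences. The 5 tested genes of the set are in red with 95% exact intervals, and all 5 lie between the dotted lines, with Mir143 at 0.31 and Mir145a at -0.50.

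The genes whose difference between the libraries was most like that of a member were taken among genes within 4-fold of its mean CPM. With 2 libraries this likeness rests on a single ratio. For Mir143 (0.31 on the log2 scale) they were Mir10b (0.35), Mirlet7g (0.25) and Mir23b (0.21). For Mir214 (-0.31) they were Mir328 (-0.32), Mir382 (-0.30) and Mir433 (-0.33). For Mir199b (0.65) they were Mir20b (0.67), Mir495 (0.63) and Mir29c (0.68).

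Markers of other cell types differed between the libraries as well, and their part in the differences above was not tested. Sums of CPM are given for replicate 1 and then replicate 2. Calls are by the exact binomial test, to be read against the 59.0% of all tested genes called. That share was 80.4% when the count minimum was raised to 100. The endothelial genes Mir126a and Mir126b summed to 84277 and 45256 CPM, with 2 of 2 called higher in replicate 1. The liver miRNA Mir122 had 29424 and 97850 CPM, and was called lower in replicate 1. The 9 striated muscle genes, of which 4 were detected, summed to 929 and 3337 CPM, led by Mir206, with 3 of 4 tested called lower and Mir133a-2 at 0. The 3 red cell genes summed to 720 and 322 CPM, led by Mir451a, with 2 called higher and Mir486 called lower, at 17.2 and 42.2 CPM. The 4 leukocyte genes summed to 1044 and 1547 CPM. Among them Mir150, the highest by mean, had 292 and 786 CPM and was called lower, as was Mir155, and Mir142 (390 and 368 CPM) and Mir223 did not pass.

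In other lists the sum and the calls differed. The 10 epithelial and kidney genes summed to 1573 and 1632 CPM, most of it Mir203, which was called higher in replicate 1 at 1139 and 824 CPM. Of the other genes of that list 7 were called lower, among them Mir200b at 39.4 and 161 CPM, and the median log2 ratio was -0.77. The 4 endocrine and neuroendocrine genes summed to 39914 and 37795 CPM, most of it Mir375, which did not pass (-0.01 on the log2 scale). The other 3, Mir7-1 (0.67), Mir7-2 (1.19) and Mir7b (0.76), were called higher in replicate 1. The 12 neuronal genes, of which 6 were detected, summed to 1019 and 600 CPM, led by Mir137, with 5 of 6 tested called higher. Mir124a-1, Mir124a-3, Mir9-1 and Mir9-2 were at 0, but each shares runs of 18 bases with other copies, so these zeros do not show absence. Mir133a-2, Mir126a, Mir126b, Mir142, Mir451a, Mir486, Mir7-1 and Mir7-2 share such runs too, as do further genes of these lists. The runs were sought on both strands, so a run can also lie in an antisense entry at the same place, which own-strand counts keep apart. Mir142 shared all its windows of 18 bases with Mir142b, and still had 1110 counts in replicate 1 and 1132 in replicate 2. Counts are uncertain where the run lies in a copy at another place, and which genes these are was not tested.

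With Mir122 out of the totals, the 5 tested members kept their directions and 4 were still called. Their log2 ratios of replicate 1 over replicate 2 were then 0.20 for Mir143, -0.60 for Mir145a, -0.42 for Mir214, 0.55 for Mir199b and 0.065 for Mir199a-2. No miRNA that defines the adrenal gland was listed, so the tissue label was not checked in this way.

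A list of 28 other miRNAs linked to smooth muscle, fibroblasts or fibrosis was set beside the 7 genes, of which 27 were matched and 23 tested. By the exact binomial test 8 were higher and 9 lower in replicate 1, against 30.4% higher and 28.6% lower over all tested genes, and the median log2 ratio was -0.04, against -0.07 over all tested genes. With Mir122 out of the totals 6 were higher and 12 lower, and the share of higher genes among all called genes was 43.3%, against 51.5% with Mir122 kept. At least 18 bases in a row, on either strand, were common to another annotated hairpin for 13 of these 27 genes. Levels of those 13 are uncertain where the run lies in a copy at another place. The list holds 4 genes of the striated muscle list and 1 of the leukocyte list. The most abundant was Mir322, a gene of a growth-arrest cluster, with 35458 CPM in replicate 1 and 18855 in replicate 2. Mir22, known from heart and smooth muscle, had 18535 and 26923 CPM. Mir21a, which is raised in activated fibroblasts, had 6869 and 13582 CPM, and Mir140, known from cartilage, 1493 and 8251 CPM. Mir130a had 11200 and 5126 CPM, Mir27b 4280 and 4116 CPM, and Mir100 3407 and 2691 CPM. These 7 were the genes of the list with at least 1000 CPM in both libraries. Mir143 was above each of the 7 by mean CPM, with Mir322 the only one whose range overlapped its own. The mean CPM of Mir145a and of Mir214 lay below that of each of the 7. Both lay above every other matched gene of the list by mean CPM, the highest of which was Mir29a at 950 CPM.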

How the data were processed

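MicroRNA sequencing libraries of the adrenal gland, 2 in 1 group, were analysed. Per the file descriptions, the authors deposited unnormalized read counts for each miRNA gene of GENCODE M21 on mm10. For the aligner and the counter, a name is not given in the sources used here. The 3 count columns of a file were identified from their values as without strand, own strand and opposite strand, and 4 rows of unassigned reads stayed out of totals. Own-strand counts were the main ones. The members, lists and tests were chosen with earlier results of these data known.

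CPM was computed over own-strand counts. An exact binomial test, two-sided, was run on each gene whose counts summed to 10 or more, and Fisher's exact test on neighbouring pairs, each with Benjamini-Hochberg adjustment over all tested genes or pairs at 0.05. These tests compare 2 libraries, not conditions, and measure only counting error between them. Log2 ratios added 0.5 counts. No molecular identifiers are recorded, so intervals and floors cover counting error only. Named genes were the members, genes that overlap them, miRNA genes within 10000 bases or with a member's seed, neighbours in rank or ratio, list members above 1000 CPM in both libraries and the highest marker of each other list. Carmn, the markers at 0 and further markers beside the highest of a list were named after their values were seen. Alternatives were other count minimums, pseudocounts and distances, the column without strand, single replicates, TMM and DESeq2 factors, totals without Mir122 or the most abundant gene, and a negative binomial test. The scripts were tested on simulated data. Tool versions were edgeR 4.0.16 and DESeq2 1.42.0 under R 4.3.3, and scipy 1.17.1, pandas 2.3.3 and numpy 2.4.6 under Python 3.11.15.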

Additional observations from a re-analysis of the deposited data

Results flagged for a closer look

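A signal outside the counts per gene drew attention by its share of the reads. The 3-count limit is set for a single gene and is no measure of it. Multiply mapped reads were 27.5% of all reads in replicate 1 and 25.9% in replicate 2, and the tables do not say to which genes they map. Among the 7 genes, Mir199a-1, Mir199a-2 and Mir199b share whole mature arms, and the part of these reads that belongs to them was not tested.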

How the results depend on the processing

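No paired analysis was possible because there was 1 group. Of 142 alternatives, 132 were taken as the same, and 0 changed direction. For levels and ratios, the same means that direction and side of the threshold were kept, or the move was less than the spread. Counts of called genes and pairs have no such rule, and several were taken as the same although they moved. Genes called went from 262 of 444 to 229 of 285 with a minimum of 100 counts. Pairs called went from 79 of 114 to 62 of 94 in the column without strand. The other mesenchymal list went from 8 higher and 9 lower to 6 and 12 without Mir122. The 132 include the 18 values from single replicates, which stay within the SD by construction and show no stability. They also include the members' partner ratios and the share of Mir199b in the column without strand, which could not change because the counts were the same. The pseudocount does not enter the p of either exact test, so its calls could not change. The count minimum and the neighbour distance do not enter the ratio of a gene or a pair. The 132 are therefore no measure of stability. In the column without strand the counts of the 7 genes were the same and the total was smaller, so mean levels were 41795 CPM for Mir143, 2317 CPM for Mir214 and 21.7 CPM for Mir199a-2. Without the most abundant gene in the totals Mir199a-2 was at 19.3 CPM. The negative binomial test of edgeR called 2 genes and 0 of the 7, with log2 ratios of 0.37 for Mir143, -0.43 for Mir145a, -0.25 for Mir214 and 0.72 for Mir199b, all no longer past the threshold. By its construction it takes its spread from the same libraries. Leaving out each replicate in turn, the 18 values included 30258 to 37388 CPM for Mir143, 1203 to 1697 for Mir145a and 72.6% to 78.7% for the share of Mir199b among the copies. Low counts widen the intervals of Mir199a-2 and Mir199b, and the multiply mapped reads left out of all genes limit the miR-199 copies as well.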
